A study of Mus musculus with 2 samples.

Results

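Surface ectoderm barcodes were studied in 2 droplet libraries of caudal tissue from wild-type C57BL/6J mouse embryos at E8.5, and 1969 of 19550 retained barcodes were assigned to this population. A barcode stands for 1 droplet, normally 1 cell, and its content was counted as unique molecular identifiers (UMIs), each tagging 1 captured RNA molecule. A barcode was retained if it had 2000 UMIs and 1000 genes or more, and if mitochondrial genes gave between 0.3% and 10% of its UMIs. A member carried at least 4 UMIs in all of Tfap2a, Grhl3, Sfn and Wnt6, at most 1 UMI of the gut endoderm genes Foxa1 and Cpn1, and at most 1 UMI of the neural genes Sox1 and Pax6. Replicate 1 gave 1231 members of 11228 barcodes (10.96%, exact 95% interval 10.4% to 11.6%) and replicate 2 gave 738 of 8322 (8.87%, 8.27% to 9.50%). The intervals cover counting error only. Both libraries share 1 strain, genotype, stage and treatment: caudal tissue of several embryos was combined and dissociated for 15 min with TrypLE, with no transgene or agent named. The series title concerns neuromesodermal progenitors, and no condition was compared, so every comparison below is between classes of barcodes within a library.

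The surface ectoderm is the sheet of embryonic epithelium that covers the body and later forms the epidermis. At the tail end it flanks the open neural plate, its edge is the neural plate border, and it joins the amnion at the rim of the embryo. Tfap2a (AP-2 alpha) and Grhl3 (a Grainyhead-like factor) are transcription factors needed in this tissue for closure of the neural tube and for the epidermal barrier. Sfn encodes the epithelial protein 14-3-3 sigma and Wnt6 a secreted Wnt ligand of the ectoderm.

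The values that chose the members are given as a description. The median member held 15 and 11 UMIs of the 4 genes in replicates 1 and 2. In CPM, the UMIs of a gene scaled to the class's total, Wnt6 was at 498 and 408 in members and at 22.0 and 7.19 in the other barcodes. Tfap2a was at 80.9 and 111 in members against 1.82 and 1.23, Sfn at 117 and 240 against 5.75 and 3.92, and Grhl3 at 58.7 and 45.2 against 3.75 and 5.08. Of the barcodes with at least 4 such UMIs, the endoderm genes excluded 256 of 1506 in replicate 1 and 20 of 759 in replicate 2, and the neural genes excluded 28 and 1. Just outside the threshold, at 3 UMIs, stood 202 and 97 barcodes, with Epcam at 54.3 and 103 CPM and Trp63 at 1.39 and 15.8 CPM. Just inside it, at 4 UMIs, stood 132 and 41 barcodes, with Epcam at 111 and 238 CPM and Trp63 at 3.82 and 44.2 CPM. In replicate 1 the barcodes at 4 UMIs also held 130 CPM of T, a caudal progenitor gene, against 117 CPM at 3 UMIs.

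**Figure D1:**
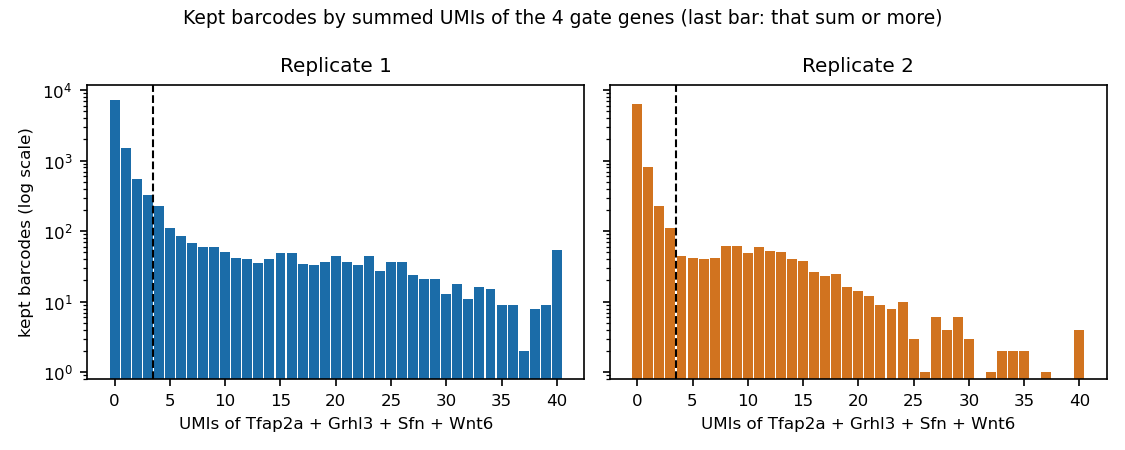
Number of retained barcodes (vertical axis, logarithmic) by their summed UMIs of Tfap2a, Grhl3, Sfn and Wnt6 (horizontal axis) in replicates 1 and 2; the dashed line marks the threshold of 4 UMIs, the last bar gathers all higher sums, and barcodes removed by the endoderm and neural genes are included. Counts fall steeply up to the threshold and then run on in a long, lower stretch around the members' medians of 15 and 11 UMIs.

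Each gate gene was also left out of the choice in turn, as a description. Barcodes chosen on the other 3 genes (sum at least 4, same exclusions) held Tfap2a at 80.2 and 109 CPM against 2.22 and 1.83 in the rest, and Sfn at 117 and 236 against 6.51 and 6.75. Grhl3, chosen without its own counts, was at 53.8 and 42.2 against 4.99 and 5.53, and Wnt6 at 541 and 390 against 44.7 and 19.9. Each of the 4 genes was thus higher in barcodes picked without it than in the rest, in both libraries. These values come from the same genes and exclusions that chose the members, so they are no independent check of the label.

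Promoter letters are shown for 4 genes, since an AP-2 and a Grainyhead-like factor are among the gate genes. They are Wnt6 from the gate, Bhlha9, the first of the genes named as higher below, and the keratins Krt18 and Krt7. Sequences are the 250 bases before the RefSeq start, read 5′ to 3′ on the gene's strand, which was the plus strand for each (GRCm38.p6). Capitals mark matches to the AP-2 letters GCCNNNGGC, a palindrome that reads alike on both strands. The windows lie at chr1:74771642-74771891 for Wnt6, chr11:76672220-76672469 for Bhlha9, chr15:102027966-102028215 for Krt18 and chr15:101412153-101412402 for Krt7.
Wnt6: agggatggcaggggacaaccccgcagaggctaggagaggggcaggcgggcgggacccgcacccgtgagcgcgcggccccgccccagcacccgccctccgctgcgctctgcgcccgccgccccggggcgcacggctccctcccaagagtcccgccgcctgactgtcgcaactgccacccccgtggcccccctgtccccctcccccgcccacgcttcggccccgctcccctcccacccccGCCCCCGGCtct
Bhlha9: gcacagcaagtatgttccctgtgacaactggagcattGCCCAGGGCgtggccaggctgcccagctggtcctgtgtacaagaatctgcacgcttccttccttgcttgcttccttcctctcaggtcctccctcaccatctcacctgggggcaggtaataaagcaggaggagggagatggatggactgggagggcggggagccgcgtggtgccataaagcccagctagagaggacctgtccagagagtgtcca
Krt18: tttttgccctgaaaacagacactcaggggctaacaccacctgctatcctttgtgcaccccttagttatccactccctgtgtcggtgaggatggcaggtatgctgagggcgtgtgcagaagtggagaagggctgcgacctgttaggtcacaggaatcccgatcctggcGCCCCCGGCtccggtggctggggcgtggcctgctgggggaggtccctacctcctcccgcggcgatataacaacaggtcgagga
Krt7: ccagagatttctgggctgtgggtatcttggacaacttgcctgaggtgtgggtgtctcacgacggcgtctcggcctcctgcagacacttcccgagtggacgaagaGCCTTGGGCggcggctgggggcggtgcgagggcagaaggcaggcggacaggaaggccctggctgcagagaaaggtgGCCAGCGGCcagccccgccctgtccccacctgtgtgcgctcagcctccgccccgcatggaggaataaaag
Wnt6 had its match 12 bases before the start, Bhlha9 at 213 and Krt18 at 83, while Krt7 had 2, at 146 and 70. All 4 promoters shown hold a match, which most promoters of their sets do not. The letters were in 1 of 5 promoters of the gate genes and in 2 of 5 promoters of the keratins. The same letters occurred in 6 of 17 promoters (35.29%) of the 20 genes named as higher below, of which 14 were matched in RefSeq. Over all higher genes the share was 19.77% of 1209 promoters, beside 20.06% of the promoters of all genes tested and 13.73% of all 32851 promoters. The Grainyhead-like letters AACCGGTT, also a palindrome, were in 0.08271% of the higher genes' promoters and in 0.1819% of those of tested genes. A match is a string of letters and not a bound site.

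Some members carried RNA of other cell types, and this is set out before the comparisons. Doublet scoring with Scrublet marked 12.6% and 7.59% of members as likely pairs of cells, against 8.67% and 2.65% of the other barcodes. Over all barcodes scored it marked 6.69% and 1.95%, below the expected doublet rates of 24.4% and 14.6% that it was given, so unmarked doublets may remain where marked barcodes were removed. Members with at most 2 UMIs in all of 12 mesoderm genes (Tbx6, Msgn1, Dll3, Meox1, Tcf15, Foxf1, Hand2, Prrx1, Osr1, Kdr, Cdh5 and T) numbered 751 (61.0%) and 579 (78.5%), by a count of UMIs that is not scaled to the greater depth of replicate 1. Counts and values for these low-mesoderm members, a set chosen after the data were seen, are given beside the results. Barcodes outside the members were not filtered in this way. Genes expressed together with the 12 can therefore be lower in low-mesoderm members through the choice itself. The summed level of 6 presomitic and somitic markers was 118 and 91.1 CPM in members against 405 and 473 CPM in the others, and that of 6 endothelial markers 28.9 and 35.6 against 112 and 111. Summed blood markers were at 1.15 and 3576 CPM in members against 3.61 and 8147 in the others, so haemoglobin RNA was abundant in replicate 2 only. The neural crest marker Foxd3 was at 0 in members of replicate 2. The 12 surface ectoderm markers summed to 3292 and 2874 CPM in members and to 1008 and 507 CPM in the others.

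Members of replicate 1 were deeper (median 21783 UMIs and 5061 genes) than those of replicate 2 (14371 and 4336), and the other barcodes had medians of 17362 and 13590.5 UMIs. The libraries held 295866003 and 150964773 UMIs in all, and 761 cell barcodes occurred in both, 0 of them as members of both. The libraries also differed in genes of axial position in every class. Hoxc10, a posterior Hox gene, was at 1.76 and 52.2 CPM in members and at 4.52 and 57.4 CPM in the others. Cdx1, a caudal homeobox gene, ran the other way, at 211 and 20.4 CPM in members and 193 and 39.5 CPM in the others. Fits therefore compared classes within each library.

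Members were first compared with all other retained barcodes of their library. Of 16121 genes tested, 1223 were higher (7.59%) and 972 lower (6.03%) in members, with a median log2 difference of 0.00 over all genes tested. Transcription factors, keratins, junction genes and several Wnt and BMP ligands were higher. Genes of the neural plate, gut, mesoderm, endothelium and anterior Hox groups were lower. Every gene of the gate was left out of these counts. Among low-mesoderm members 1760 genes were higher and 1591 lower. Among higher genes with at least 30 CPM in members of each library, Bhlha9, a bHLH factor of limb ectoderm, had the largest difference. It was at 71.6 and 115 CPM in members and 1.03 and 0.996 CPM in the others (log2 difference 6.44 ± 0.18 SE, adjusted p = 0.000417).

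Epidermal transcription factors were mostly higher: of 20 listed, 13 were higher and 1 lower, with a median log2 difference of 2.20. Trp63, the p63 factor that commits ectoderm to stratified epidermis, was at 27.3 and 90.4 CPM in members and at 0.456 and 1.04 CPM in the others. Its summed level was higher in members of both libraries, although only 34.9% and 64.0% of single members held a Trp63 UMI, and the log2 difference was 6.14 ± 0.15 (adjusted p = 0.000297). The Distal-less genes Dlx2, Dlx3 and Dlx5, factors of the neural plate border and epidermis, were higher by 5.02 ± 0.30, 4.06 ± 0.16 and 4.49 ± 0.20 (adjusted p = 0.00201, 0.000925 and 0.0011). The AP-2 relatives Tfap2b and Tfap2c were higher by 4.13 ± 0.42 and 4.17 ± 0.25 (adjusted p = 0.00654 and 0.00201). Grhl2, the Grainyhead-like partner of Grhl3, was at 25.1 and 42.5 CPM against 3.33 and 2.72 CPM (3.42 ± 0.25, adjusted p = 0.00345), and Ovol1, a repressor in epidermal differentiation, was higher by 3.84 ± 0.29 (adjusted p = 0.00371).

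Isl1, a LIM homeobox factor of splanchnic mesoderm and hindlimb field, was the 1 member of that list that was lower, at 5.75 and 6.80 CPM against 11.2 and 17.2 CPM (adjusted p = 0.0161). Hand1, a bHLH factor of amnion and lateral plate, went in opposite directions: 158 CPM in members against 94.1 in replicate 1, and 49.7 against 70.0 in replicate 2 (adjusted p = 0.758). Gata3 was at 13.7 and 18.7 CPM against 7.08 and 17.2 (adjusted p = 0.183). Among named genes outside the lists, Sp6 and Irx2, transcription factors of ectodermal appendages and of patterned ectoderm, were higher by 3.38 ± 0.18 and 3.48 ± 0.09 (adjusted p = 0.00159 and 0.0004). Batf3, a basic leucine zipper factor, was higher by 3.48 ± 0.12 (adjusted p = 0.000713).

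Keratins, the intermediate filaments of epithelia, were higher in 6 of 8 cases and lower in 0, with a median log2 difference of 2.02. Krt8 and Krt18, the pair of simple epithelium, were at 1060 and 647 CPM and at 986 and 665 CPM in members. The other barcodes held Krt8 at 398.5 and 186 CPM and Krt18 at 430 and 222 CPM, so the log2 differences were 1.62 ± 0.10 and 1.40 ± 0.10 (adjusted p = 0.00211 and 0.00289). Krt7, another simple keratin, was at 109 and 135 CPM against 22.5 and 13.01 (2.82 ± 0.25, adjusted p = 0.00486). Krt5, a keratin of basal epidermis, was at 13.9 and 12.7 CPM against 1.33 and 0.161 (4.43 ± 0.65, adjusted p = 0.0156). Its usual partner Krt14 was at 1.40 and 5.30 CPM against 0.696 and 0.313 and did not pass (adjusted p = 0.0959). In low-mesoderm members 7 of 8 keratins were higher.

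**Figure D2:**
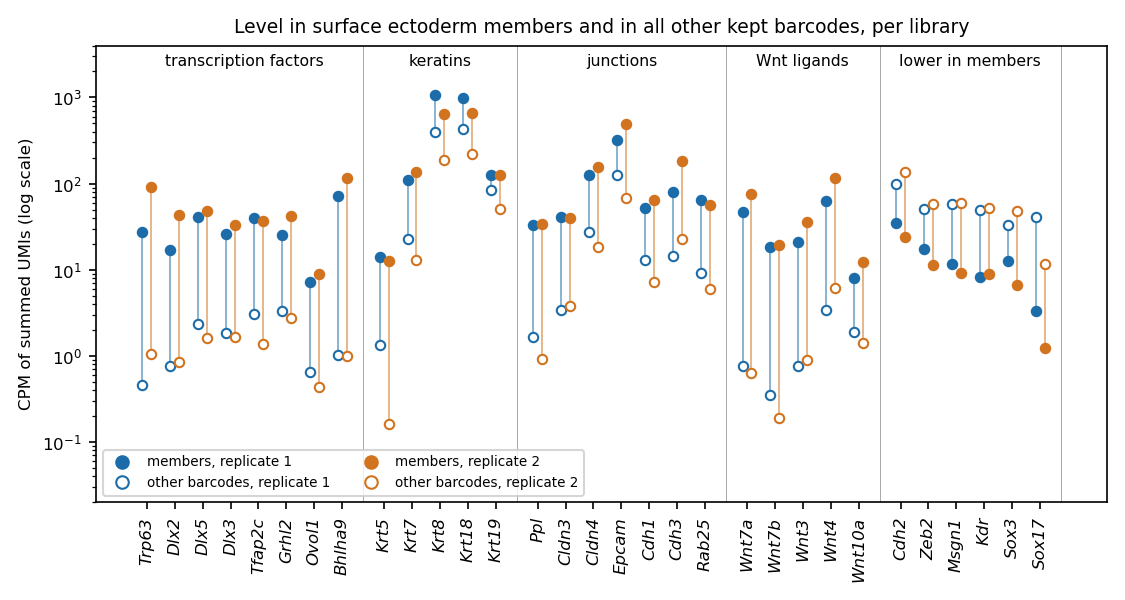
Level in CPM (vertical axis, logarithmic) of genes in 5 groups, in members (filled points) and all other retained barcodes (open points), each point 1 library and each line joining the 2 classes of a library. In the first 4 groups the filled point is the upper one in both libraries, from Trp63 at 27.3 and 90.4 CPM against 0.456 and 1.04 to Krt19 at 125 and 125 against 84.9 and 50.5, and in the last group it is the lower one.

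Of 25 genes of epithelial junctions and epithelial splicing, 22 were higher and none lower (median 2.11). Cdh1 (E-cadherin) was at 52.4 and 64.6 CPM against 13.2 and 7.14 (2.57 ± 0.27, adjusted p = 0.00689) and Cdh3 (P-cadherin) at 80.1 and 182 against 14.6 and 22.8 (2.74 ± 0.13, adjusted p = 0.0011). The desmosome gene Ppl (periplakin) was higher by 4.69 ± 0.24 (adjusted p = 0.00138). Perp, a p63-dependent desmosome protein in skin, was at 46.4 and 146 CPM against 8.01 and 4.36 (3.76 ± 0.60, adjusted p = 0.0198). Tight junction claudins Cldn3 and Cldn4 were higher by 3.49 ± 0.12 and 2.67 ± 0.20 (adjusted p = 0.000713 and 0.00356). Cldn7 was at 135 and 245 CPM against 87.5 and 39.5 and did not pass (adjusted p = 0.0777). Esrp1, a splicing factor of epithelial exons, was higher by 3.09 ± 0.21 (adjusted p = 0.00267). In low-mesoderm members 24 of the 25 genes were higher.

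Other genes with large differences code for proteins of the cell surface, the secreted space and the cell interior. The connexin Gjb5, a gap junction protein of epidermis, was higher by 3.20 ± 0.18 (adjusted p = 0.00186). Upk1a, a tetraspanin better known from bladder epithelium, was at 55.3 and 68.4 CPM against 2.33 and 3.02 (4.54 ± 0.09, adjusted p = 0.000244). Tmem54 and Ldoc1 were higher by 4.48 ± 0.38 and 4.31 ± 0.12 (adjusted p = 0.00457 and 0.000417). The metallothionein Mt2 was higher by 3.16 ± 0.59 (adjusted p = 0.0285). The chemokine Cxcl12, which guides migrating cells, was at 202 and 478 CPM in members against 31.4 and 36.5 (3.21 ± 0.24, adjusted p = 0.00345).

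Mesenchymal genes went the other way, with 10 of 12 lower and 1 higher (median −1.26). Cdh2 (N-cadherin) was at 34.7 and 24.1 CPM in members against 100 and 138 (−1.97 ± 0.25, adjusted p = 0.0114), and Zeb2, a repressor of E-cadherin, was lower by −1.88 ± 0.22 (adjusted p = 0.0091). Snai2, a factor of epithelial to mesenchymal transition and of neural crest, was the 1 higher, at 14.7 and 15.7 CPM against 8.96 and 10.3 (0.68 ± 0.13, adjusted p = 0.0297). In low-mesoderm members Snai2 did not pass (0.46, adjusted p = 0.102) and 9 of 11 were lower.

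Of 19 genes of basement membrane and integrins, 10 were higher and 3 lower (median 0.85). Npnt (nephronectin), an integrin ligand of epithelial basement membranes, was at 128 and 123 CPM against 7.10 and 5.88 (4.28 ± 0.08, adjusted p = 0.000244). Itga3, a laminin receptor subunit, and Frem2, which anchors embryonic epidermis, were higher by 2.25 ± 0.29 and 2.32 ± 0.17 (adjusted p = 0.0114 and 0.00356). The laminin chains went apart: Lama5 was higher by 1.64 ± 0.17 (adjusted p = 0.00679) and Lama1 lower by −1.34 ± 0.12 (adjusted p = 0.0048). Tinagl1, a matrix protein of basement membranes, was higher by 3.13 ± 0.37 (adjusted p = 0.00935). Of 17 genes known from neural tube closure and surface proteases, 7 were higher and 0 lower (median 0.28). These were Grhl2 and Fzd6, and the protease system of Prss8, St14, their inhibitors Spint1 and Spint2, and the receptor F2rl1. F2rl1 was at 31.7 and 14.3 CPM against 4.63 and 1.80 (2.88 ± 0.13, adjusted p = 0.0011), and Spint1 at 172 and 123 against 49.6 and 27.8 (1.98 ± 0.09, adjusted p = 0.0011). Planar polarity genes Vangl2 and Ptk7 did not pass, at 55.0 and 70.2 CPM against 49.4 and 53.4, and 330 and 343 against 325 and 302 (adjusted p = 0.0727 and 0.334).

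Among signalling genes, Wnt ligands split. Of 25 Wnt genes, 7 were higher and 6 lower (median 0.00). Wnt7a was at 46.9 and 74.7 CPM in members against 0.757 and 0.626 (6.34 ± 0.22, adjusted p = 0.00072), and Wnt7b at 18.1 and 19.5 against 0.356 and 0.190 (5.98 ± 0.28, adjusted p = 0.0011). Wnt3 and Wnt4 were higher by 5.03 ± 0.18 and 4.23 ± 0.08 (adjusted p = 0.00072 and 0.000244), and Wnt10a by 2.58 ± 0.29 (adjusted p = 0.00864). Wnt5a, a ligand of the tail bud, was at 77.3 and 124 CPM in members and 83.3 and 121 in the others (−0.03 ± 0.07, adjusted p = 0.834). The target and feedback gene Axin2 did not pass (0.24 ± 0.11, adjusted p = 0.218), while Sp5, a Wnt target of the tail, was lower at 72.9 and 16.4 CPM against 140 and 57.1 (−1.30 ± 0.22, adjusted p = 0.0219). The modulators Sfrp1 and Rspo3 were lower by −1.96 ± 0.12 and −1.17 ± 0.11 (adjusted p = 0.00199 and 0.0059).

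The BMP and TGF-beta list, with 22 genes tested, gave 9 higher and 3 lower (median 0.32). The ligands Bmp7, Bmp2 and Bmp4, signals that favour epidermis over neural tissue, were higher by 2.13 ± 0.32, 1.33 ± 0.18 and 0.77 ± 0.09 (adjusted p = 0.0165, 0.0123 and 0.0103). Their target genes Msx1 and Msx2 were at 555 and 447 CPM and 185 and 206 CPM in members. The others held 210 and 155 CPM of Msx1 and 55.7 and 35.0 CPM of Msx2, so the log2 differences were 1.48 ± 0.07 and 2.15 ± 0.18 (adjusted p = 0.0011 and 0.00458). The antagonist Fst was lower at 14.9 and 2.65 CPM against 52.6 and 19.2 (−2.13 ± 0.24, adjusted p = 0.00898).

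The FGF list gave 7 lower and 2 higher of 20 (median −0.07). The higher ones were Fgfr2, a receptor of epithelia, at 55.8 and 97.9 CPM against 32.8 and 22.7 (1.44 ± 0.29, adjusted p = 0.0369), and the feedback gene Spry1 (1.58 ± 0.17, adjusted p = 0.00782). Fgf8, the caudal ligand, was at 85.8 and 35.1 CPM in members against 132 and 92.9 (−0.97 ± 0.20, adjusted p = 0.0397). In low-mesoderm members the FGF list had 5 higher and 10 lower, and the difference of Fgf8 was −2.74 (adjusted p = 7.95e-05). The choice of these members by T, Tbx6 and Msgn1 can itself lower Fgf8. Notch genes were lower in 7 of 14 cases and higher in 1 (median −0.63). Jag2, a ligand of stratified epithelium, was the higher one, at 5.21 and 22.5 CPM against 1.06 and 1.53 (3.09 ± 0.40, adjusted p = 0.0116), and Dll1 was lower by −2.15 ± 0.16 (adjusted p = 0.00371).

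Of 13 retinoic acid genes tested, 1 was higher and 2 lower (median 0.05): Crabp1, a retinoic acid binding protein, was at 706 and 859 CPM against 470 and 336 (0.98 ± 0.17, adjusted p = 0.0235), and Aldh1a2, the synthesis enzyme of trunk mesoderm, was lower by −2.38 ± 0.33 (adjusted p = 0.0135). Hedgehog genes were lower in 5 of 12 cases and higher in 2 (median −0.17). The ligands Shh and Ihh were lower by −2.88 ± 0.48 and −3.38 ± 0.28 (adjusted p = 0.022 and 0.00438), as was the receptor and target Ptch1 (−1.06 ± 0.10, adjusted p = 0.00588). The co-receptors Gas1 and Cdon were higher by 0.76 ± 0.10 and 1.20 ± 0.15 (adjusted p = 0.0125 and 0.0105). Of 16 Eph receptors and ephrins, 4 were higher and 5 lower (median 0.18): Efna1 and Ephb3 were higher by 0.98 ± 0.12 and 1.06 ± 0.09, and Epha5 and Epha4 lower by −1.59 ± 0.19 and −1.20 ± 0.09 (adjusted p = 0.0107, 0.00499, 0.00935 and 0.00332).

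Neural border and crest genes gave no common direction, with 4 of 15 higher and 5 lower (median −0.12). Pax7, a border and crest factor, was at 2.44 and 3.003 CPM against 0.2504 and 0.218 (3.39 ± 0.33, adjusted p = 0.00597). Pax3, which acts beside it in dorsal neural tube, crest and somites, was at 20.4 and 19.96 CPM in members and 20.4 and 24.4 in the others (adjusted p = 0.551). The crest factors Sox10 and Foxd3 did not pass, at 0.934 and 0.265 CPM against 0.161 and 0.114, and 0.575 and 0 CPM against 0.2504 and 0.512 (adjusted p = 0.0557 and 0.959). Of 7 placode genes tested, 3 were higher and 2 lower. Foxi3, an early pan-placodal factor also found in epidermal appendages, was at 8.08 and 2.65 CPM against 0.495 and 0.0949 (4.16 ± 0.31, adjusted p = 0.00342).

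Most anterior Hox genes were lower in members. Of the Hox 1 to 4 genes, 8 of 12 were lower and 0 higher (median −0.64), led by Hoxb1 at 40.9 and 24.6 CPM against 76.6 and 81.3 (−1.27 ± 0.21, adjusted p = 0.0217). Among Hox 5 to 8 genes 1 of 11 was higher and 2 were lower (median 0.03), and among Hox 9 to 13 genes 1 of 13 was higher and 1 lower (median −1.06, with 9 at an unadjusted p under 0.05). The groups of Hox genes were not tested against each other. The higher Hox genes were Hoxa7 (0.64 ± 0.07, adjusted p = 0.00729) and Hoxc13, a Hox gene of hair and nails, at only 0.683 and 1.32 CPM against 0.0723 and 0.0569 (3.39 ± 0.46, adjusted p = 0.0133). Hoxa9 and Hoxb9 did not pass (0.23 ± 0.07 and 0.02 ± 0.09, adjusted p = 0.0796 and 0.89). Cdx2, a caudal homeobox factor, was at 285 and 248 CPM in members and at 252 and 212 in the others (0.21 ± 0.07, adjusted p = 0.099). Cdx4 was lower at 151 and 92.8 CPM against 228 and 255 (−1.003 ± 0.22, adjusted p = 0.0449).

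Among lower genes with at least 30 CPM in the other barcodes, the 10 largest differences included those of mesoderm and endothelium genes. Apela, a peptide ligand of the apelin receptor, was at 5.10 and 5.65 CPM in members against 46.1 and 46.6 (−3.10 ± 0.09, adjusted p = 0.000516). Kdr and Ramp2, endothelial receptor genes, were lower by −2.56 ± 0.09 and −2.38 ± 0.10 (adjusted p = 0.000713 and 0.001). Msgn1, Tcf15 and Foxc2, paraxial mesoderm factors, were lower by −2.46 ± 0.13, −2.30 ± 0.20 and −2.40 ± 0.30 (adjusted p = 0.00173, 0.0046 and 0.0114). Cpm, a carboxypeptidase, Pcdh19, a protocadherin, Fbn2 (fibrillin 2) and Aldh1a2 completed the 10 named, at −2.56, −2.46, −2.33 and −2.38. Lower genes numbered 8 of 8 for gut endoderm, 7 of 8 for paraxial mesoderm, 7 of 8 for endothelium, 9 of 12 for neural, 4 of 6 for lateral plate, 5 of 6 for extraembryonic endoderm and 4 of 10 for caudal epiblast, with 0 higher in each. For caudal epiblast genes the low-mesoderm members gave 8 of 9 lower, a count that the choice of these members by T can raise. Kdr, Msgn1, Tcf15, Dll3 and T helped choose the low-mesoderm members and are not counted there. Since the gate excluded barcodes by endoderm and neural genes, the low levels of those lists are partly set by it.

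Few cell cycle genes were called in this comparison: of 12 S phase genes 1 was lower, Gins2 (82.2 and 69.4 CPM against 125 and 122, adjusted p = 0.0125), and of 12 G2/M genes 0 were called by edgeR's quasi-likelihood test, 2 had an unadjusted p under 0.05 and 2 were called by DESeq2. With 13.6% of all genes tested called in either direction, counts from lists this short do not set cell cycle genes apart. The p-values of these tests, here as below, measure how well the difference repeats between the 2 libraries and not between embryos. Without library as a block, 61 genes were higher and 13 lower.

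The members were then set beside 3 epithelial neighbours in the same libraries, each with at most 1 UMI of the members' 4 genes. The neural class had at least 2 UMIs of Sox1 and Pax6, the gut endoderm class at least 2 of Foxa1 and Cpn1, and the caudal epiblast class at least 4 of Nkx1-2, Hes3 and Epha5. The neural and gut genes were held to at most 1 UMI in the classes they did not define. T and Tbx6 were held to at most 1 UMI in the neural class, as were Tbx6 and Msgn1 in the caudal epiblast class. Nkx1-2, Hes3 and Epha5 were not limited in the neural and gut endoderm classes. The neural class held 383 and 248 barcodes, the gut endoderm class 846 and 565 and the caudal epiblast class 1734 and 1173. Of 14094 genes tested, 1889 (13.4%) were higher and 1386 (9.83%) lower than in the neural class. Against gut endoderm 673 (4.78%) were higher and 1065 (7.56%) lower, and against caudal epiblast 1490 (10.6%) and 853 (6.05%). The median log2 difference over all genes was 0.02, 0.01 and 0.00. Genes of the gates were left out.

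**Figure D3:**
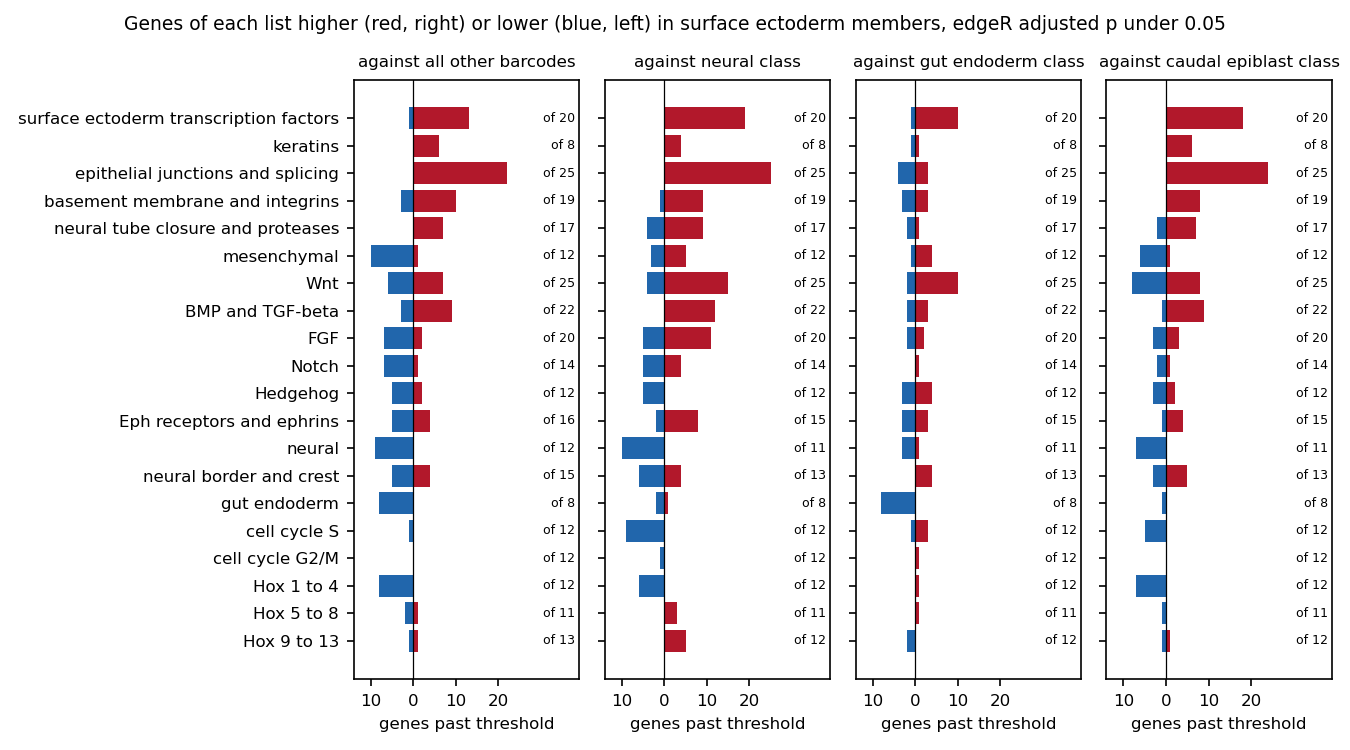
Number of genes of each list higher (red, right) or lower (blue, left) in members at edgeR's adjusted p under 0.05, in 4 panels against all other barcodes, the neural class, the gut endoderm class and the caudal epiblast class, with the number tested beside each bar. Junction genes have 22, 25, 3 and 24 higher of 25 in the 4 panels.

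Against the neural class the members were higher in epithelial genes and lower in neural genes. All 25 junction genes were higher and 0 lower (median 4.71), as were 19 of 20 epidermal transcription factors (median 4.02) and 4 of 8 keratins (median 3.95). Cldn4 was at 126 and 157 CPM in members against 0.377 and 0.740 in neural barcodes (7.74 ± 0.25, adjusted p = 4.73e-05), and Krt7 at 109 and 135 against 0.881 and 0.986 (6.79 ± 0.24, adjusted p = 4.73e-05). Cxcl12 was higher by 7.10 ± 0.27 (adjusted p = 5.26e-05). Bhlha9, Wnt7a, Upk1a and Tinagl1 were among the other named higher genes, at 7.32, 6.70, 6.55 and 6.39. Of 25 Wnt genes 15 were higher and 4 lower, and of 22 BMP genes 12 were higher and 0 lower. Bmp7 was at 47.2 and 69.8 CPM against 4.91 and 2.96 (3.81 ± 0.40, adjusted p = 0.00128).

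Neural genes were lower in 10 of 11 cases (median −4.24). Sox1 and Pax6 set these classes apart by rule, so low neural genes in members follow in part from the choice. Sox3 was at 12.7 and 6.62 CPM in members against 156 and 255 (−4.24 ± 0.39, adjusted p = 0.000758) and Rfx4, a factor of the dorsal neural tube, at 0.970 and 0.442 against 54.0 and 58.9 (−5.96 ± 0.29, adjusted p = 9.9e-05). Nrcam and Ptprz1, adhesion genes of neural progenitors, and Cntfr, a cytokine receptor, were lower by −4.87, −3.81 and −4.00. Fgfbp3 and Fgf15 were lower by −4.66 and −4.53 (adjusted p = 0.00103 and 0.00383). S phase genes were lower in 9 of 12 cases, by small amounts: Rrm2, which makes DNA precursors, was at 323 and 347 CPM against 489 and 523 (−0.63 ± 0.07, adjusted p = 0.00158) and Pcna, the replication clamp, at 200 and 189 against 273 and 296 (−0.58 ± 0.09, adjusted p = 0.00561).

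Against gut endoderm, the other polarised epithelium, members were higher in epidermal transcription factors and Wnt ligands, while junction genes went both ways. Of 25 junction genes 3 were higher (Ppl, Cdh3 and Tjp3) and 4 lower (Crb3, Ocln, Cldn7 and Cldn6), a median of 0.19. These 7, of which DESeq2 called 6, stand beside 12.3% of all genes tested called in either direction. Cdh3 was at 80.1 and 182 CPM against 23.6 and 52.9 (1.75 ± 0.19, adjusted p = 0.00234). The polarity gene Crb3 was at 25.5 and 31.4 CPM against 119 and 92.1 (−1.91 ± 0.37, adjusted p = 0.0192), and occludin, Ocln, was lower by −1.50 ± 0.30 (adjusted p = 0.021). Cdh1 was at 52.4 and 64.6 CPM in members and 52.1 and 63.4 in gut endoderm (0.00 ± 0.62, adjusted p = 1). The SE is derived from the difference and its test statistic, which makes it unstable for a difference this near 0. The SE of Cdh1 therefore sets no bound on its difference, and both libraries gave nearly equal levels. Epcam was at 321 and 491 CPM against 542 and 576 (−0.49 ± 0.25, adjusted p = 0.259).

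Keratins also split, with 1 higher and 1 lower of 8 (median 0.18). Krt5 was higher, at 13.9 and 12.7 CPM against 2.05 and 0.254 (3.49 ± 0.66, adjusted p = 0.0171), and Krt19 lower, at 125 and 125 CPM against 405 and 411 (−1.73 ± 0.19, adjusted p = 0.00225). Krt8 was at 1060 and 647 CPM against 1031 and 700 (−0.07 ± 0.33, adjusted p = 0.92). Of 20 epidermal transcription factors, 10 were higher and 1 lower (median 1.31): Trp63 was higher by 6.51 ± 0.31 and Dlx5 by 5.02 ± 0.32, and Isl1 was lower by −2.02 ± 0.30 (adjusted p = 0.000102, 0.000333 and 0.00694). Grhl2 did not pass, at 25.1 and 42.5 CPM against 14.2 and 22.1 (0.86 ± 0.26, adjusted p = 0.0807).

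The Wnt list gave 10 higher and 2 lower of 25. Wnt4 was at 62.1 and 117 CPM against 1.16 and 2.54 (5.52 ± 0.20, adjusted p = 3.42e-05), and Wnt7a was higher by 6.94 ± 0.31 (adjusted p = 7.08e-05). The other named higher genes included Bhlha9, Gjb5, Tfap2c and Hapln1, a link protein of hyaluronan matrix, at 8.10, 4.25, 4.94 and 4.41. Gut endoderm genes were lower in 8 of 8 cases (median −4.90), and the named lower genes were Nepn, Dpp4, Spink1, Ihh, Afp, Ttr, Foxa3 and Trap1a. Nepn, a marker of gut tube, was at 0.395 and 0.265 CPM against 275 and 242 (−9.16 ± 0.24, adjusted p = 2.93e-05). Foxa1 and Cpn1 set the classes apart by rule, so low gut genes in members follow in part from the choice.

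Against caudal epiblast, the progenitor epithelium of the tail, members were again higher in epithelial genes: 24 of 25 junction genes (median 3.75), 18 of 20 epidermal transcription factors (median 3.34) and 6 of 8 keratins (median 3.14), with 0 lower in each. Epcam was at 321 and 491 CPM against 23.4 and 17.5 (4.28 ± 0.29, adjusted p = 0.000358). The named higher genes included Bhlha9, Wnt7a, Upk1a, Krt7, Tmem54, Ppl and Cxcl12, between 5.91 and 7.92. Cxcl12 was at 202 and 478 CPM in members against 3.83 and 6.63 (5.91 ± 0.21, adjusted p = 4.16e-05).

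All 3 Cdx genes were lower: Cdx4 by −1.76 ± 0.33, Cdx1 by −1.08 ± 0.22 and Cdx2 by −0.69 ± 0.12 (adjusted p = 0.0137, 0.0182 and 0.00932). Cdx2 was at 285 and 248 CPM in members against 445 and 408. Hox 1 to 4 genes were lower in 7 of 12 cases (median −1.05) and the Wnt list gave 8 higher and 8 lower of 25. The named lower genes were Cdh2, Fbln2, Gbx2, Kdr, Lix1, Sox3, Tmem132c and Zic5, between −2.28 and −3.13. Sox3 was at 12.7 and 6.62 CPM against 68.3 and 125 (−3.13 ± 0.38, adjusted p = 0.00273). The caudal epiblast class was chosen by Nkx1-2, Hes3 and Epha5, so genes expressed together with them can be lower in members through the choice itself. S phase genes were lower in 5 of 12 cases, among them Gins2 (−0.78 ± 0.11, adjusted p = 0.00539).

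Hand1 showed how the reference class matters. Hand1 was higher in members than in gut endoderm, neural and caudal epiblast barcodes, at 158 and 49.7 CPM against 25.3 and 14.3, 23.6 and 4.19, and 55.8 and 21.0 (2.25 ± 0.25, 2.84 ± 0.28 and 1.37 ± 0.23, adjusted p = 0.00252, 0.000965 and 0.00938). These 3 comparisons share the members and are not independent. The amnion list gave 3 of 4 higher (Ahnak, Postn and Hand1) in each of them. Postn, however, was concentrated in cluster 9 of the clusters described below, which held 33 and 4 members and goes against the label. It stood there at 580 and 713 CPM, against 1.67 CPM in the other members.

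Members varied widely among themselves. After every member was thinned at random to 12000 UMIs, 1093 and 525 remained and 138 and 213 shallower ones were left out. Variance over mean, which is near 1 for pure counting noise, was above it most for Gm42418, a locus overlapping ribosomal RNA, then Dlk1, Acta2, Col1a1, Mest and Hand1 (lower library values of 16.5, 14.4, 11.6, 9.62, 9.36 and 8.62). Krt8 and Krt18 were among the 20 highest, at 7.62 and 6.40 by the lower library, although 94.6% and 96.0% of thinned members held a Krt8 UMI. Dlk1, a non-canonical Notch ligand, averaged 4.54 and 1.03 UMIs per member, and only 48.9% and 26.1% held any, so a subset carried most of it. Fgf8 and Cyp26a1, caudal progenitor genes, were also in this set, at 6.47 and 5.95. The glucose transporters Slc2a1 and Slc2a3 were at 7.69 and 7.39. Of the 20 genes, 19 recurred with another random thinning and 19 without doublet-marked members.

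Leiden clustering of members gave 9 clusters, given here as a description of levels with no test and no cell type names. Cluster 1 (287 and 143 members) was led by Sct, Cdkn1a and Wnt5b, with Dlx2 and Msx2 among its first 10 genes and Trp63 at 64.1 and 135 CPM. Cluster 2 (267 and 112) was led by Batf3, Irx2 and Wnt7a, with Bhlha9 at 166 and 166 CPM and Krt7 at 180 and 134. Cluster 4 (167 and 89) was led by Anxa2, Car4 and Hand1. It held Krt8 at 2062 and 962 CPM and Hand1 at 594 and 231 CPM, while Trp63 was at 10.1 and 71.7 CPM and Pax3 at 1.56 and 0.732 CPM. Cluster 7 (97 and 56) was led by the apolipoprotein and carrier genes Apoa1, Rbp4 and Ttr and also by Upk1a and Cldn3, with Grhl3 at 210 and 198 CPM and Sfn at 419 and 704 CPM. Apoa1, Rbp4, Ttr and Afp, all among its first 10 genes, belong to the extraembryonic endoderm list. Apoa1 was at 352 and 84.2 CPM, against 2.77 CPM in the other members, and the source of this RNA was not tested.

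The remaining clusters also bore RNA of other kinds or, for cluster 5, came nearly from 1 library. Cluster 3 (186 and 80) was led by the mesoderm and endothelium genes Foxf1, Tcf15 and Kdr, and 57.5% and 51.3% of it was marked by Scrublet. Cluster 6 (165 and 33) was led by Fgf8, Cyp26a1 and Epha5, with a median gate sum of 6 and 6 UMIs, Trp63 at 5.25 and 15.7 CPM, Epcam at 130 and 173 CPM, and 17.0% and 30.3% marked. Cluster 9 (33 and 4) was led by Postn, Acta2 and Col1a1. Its Tfap2a stood at 2.34 and 0 CPM and Epcam at 21.0 and 0 CPM, so these barcodes passed the gate mainly through Wnt6, at 223 and 164 CPM, and go against the label. Cluster 8 (24 and 15) had medians of only 4043.5 and 7001 UMIs and was led by haemoglobin genes in replicate 2. Cluster 5 held 5 members of replicate 1 and 206 of replicate 2, with Trp63 at 112 CPM in replicate 2, and a cluster nearly of 1 library cannot be told apart from that library.

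**Figure D4:**
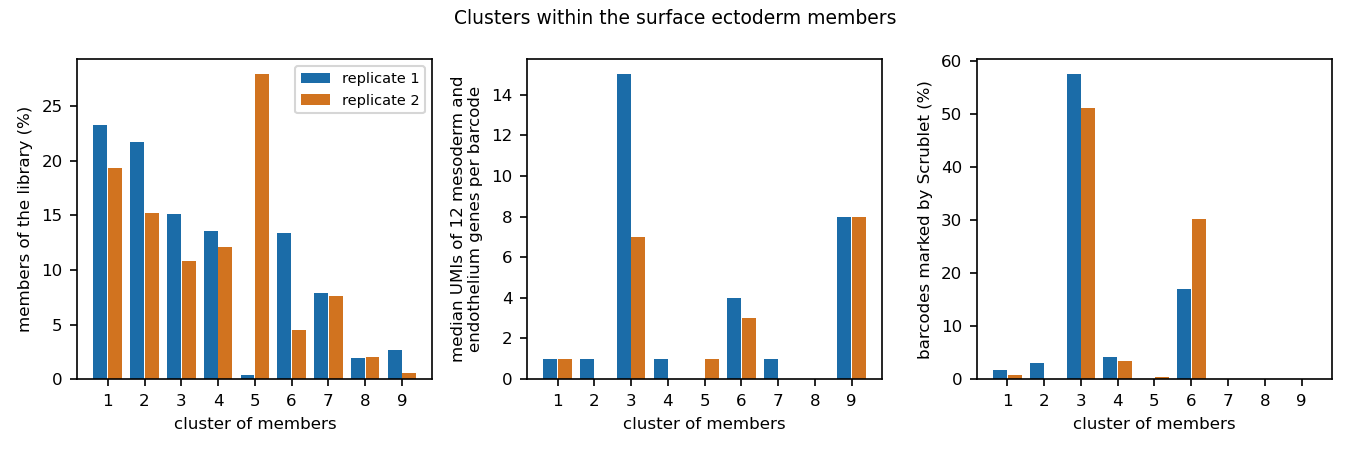
For each of 9 clusters of members (horizontal axis), 3 panels give the percent of the library's members, the median UMIs per barcode of the 12 mesoderm genes and the percent of barcodes marked by Scrublet, with 1 bar per library. Cluster 5 is 0.41% of members in replicate 1 and 27.9% in replicate 2, and cluster 3 has the highest median of mesoderm UMIs in replicate 1 (15) and the highest marked share in both libraries (57.5% and 51.3%).

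Members were finally divided, within each library, by whether a thinned barcode held at least 1 UMI of Cdx2 (tail), Pax3 (neural border) or Trp63 (epidermal commitment). Cdx2 was detected in 80.6% (exact 95% interval 78.1% to 82.9%) and 78.3% (74.5% to 81.7%) of members, Pax3 in 15.0% (12.9% to 17.3%) and 12.6% (9.86% to 15.7%), and Trp63 in 23.5% (21.0% to 26.1%) and 55.4% (51.1% to 59.7%). Unthinned, the shares were 87.9% and 80.4%, 23.0% and 16.1%, and 34.9% and 64.0%. Endothelial barcodes (842 and 505, of which 100 and 161 were left out) were set beside the members at nearly equal depth, with medians of 21800.5 and 14378 UMIs beside 21783 and 14371. They held Trp63 in 0.270% and 0.581%, Pax3 in 4.31% and 2.91%, but Cdx2 in 53.4% and 43.9%. Trp63 detection was thus far above that of endothelial barcodes, whereas the share with Cdx2 was above a share that was itself high. Whether the Cdx2 molecules of endothelial barcodes were their own RNA or background was not tested. Single Cdx2-detected members therefore cannot be told apart from barcodes with background molecules.

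The libraries differed in the Trp63 share, 23.5% against 55.4%, with intervals apart, and low-mesoderm members also differed (30.8% and 64.8%). Pax3 was found in 16.2% and 14.4% of Cdx2-detected members and in 9.91% and 6.14% of the rest. Trp63 was found in 16.5% and 40.9% of Pax3-detected members and in 24.8% and 57.5% of the rest. With Cdx2 the relation of Trp63 differed by library, 26.3% against 11.8% in replicate 1 and 55.7% against 54.4% in replicate 2. These shares are descriptions, since members of a library are not replicates.

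Tests of these divisions compared sums of detected and undetected members in each library. Both sums come from the same suspension, so the p-values reflect little beyond counting error and the gene's agreement between 2 libraries, and they are too small for genes that vary strongly from member to member. DESeq2 on the same sums called far fewer genes. Of 890, 389 and 702 genes called by edgeR for Cdx2, Pax3 and Trp63, 836, 280 and 652 had an adjusted p by DESeq2, and 149, 54 and 53 were called by both. Without library as a block 0 genes were called in any division by edgeR, with 626, 461 and 332 at an unadjusted p under 0.05 for Cdx2, Pax3 and Trp63.

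**Figure D5:**
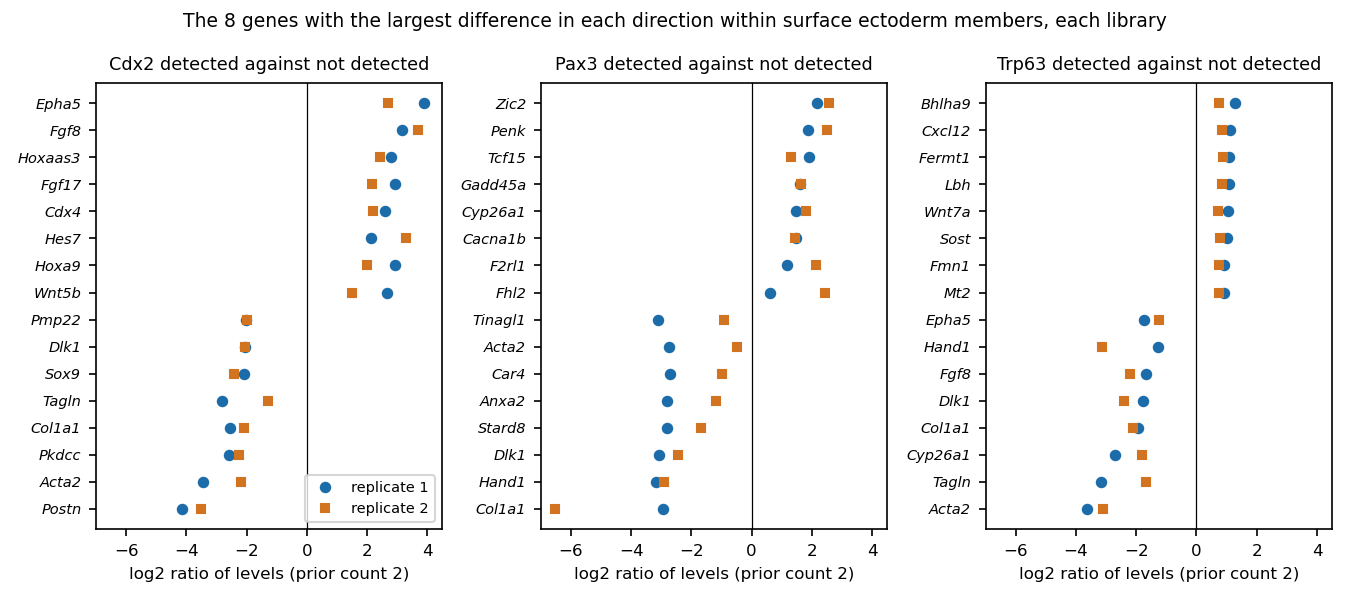
Log2 ratio of the level in detected over undetected members (horizontal axis, prior count 2) for the 8 named genes in each direction, in 3 panels for Cdx2, Pax3 and Trp63, with circles for replicate 1 and squares for replicate 2. All points of a gene lie on the same side of 0; Col1a1 in the Pax3 panel has 0 CPM in detected members of replicate 2 and is farthest out there.

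Cdx2-detected members had more caudal progenitor RNA and less RNA of the Hand1 and Acta2 group. Of 11108 genes, 369 were higher (3.32%) and 521 lower (4.69%), against 58 and 91 by DESeq2 and 113 and 114 among low-mesoderm members. Hox 9 to 13 genes were higher in 6 of 6 cases (median 1.98, beside 0.01 over all genes tested), 5 of them also by DESeq2: Hoxa9 was at 84.2 and 180 CPM with Cdx2 and at 10.6 and 45.3 without (2.36 ± 0.17, adjusted p = 1.34e-12), and Hoxb9 at 130 and 189 against 16.9 and 64.3 (2.14 ± 0.17, adjusted p = 2.85e-11). The other Cdx genes, Cdx4 and Cdx1, were higher, Cdx4 at 185 and 114 CPM against 29.9 and 24.9 (2.45 ± 0.14, adjusted p = 1.15e-14). Cdx1 was at 249 and 100 CPM in replicate 1 and at 20.3 and 19.0 in replicate 2, so its levels were nearly equal in replicate 2, and it did not pass by DESeq2 (adjusted p = 1) or among low-mesoderm members (adjusted p = 0.0621).

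The caudal epiblast list was higher in 10 of 10 cases, the Notch list in 7 of 13 and the FGF list in 8 of 17 with 2 lower. DESeq2 called 7, 2 and 5 genes of these 3 lists. Fgf8 was at 109 and 42.0 CPM against 11.8 and 2.92 (3.24 ± 0.21, adjusted p = 1.5e-13), and Fgf17, Epha5, Hes7 and Wnt5b were higher by 2.54, 3.48, 2.42 and 2.19. Hoxaas3, a noncoding RNA of the Hoxa cluster, was higher by 2.65; it lies antisense to Hox genes, and the counting's use of strand is not stated in the labels. T, a gene of the primitive streak, was at 60.4 and 21.3 CPM against 10.2 and 5.85 (2.33 ± 0.23, adjusted p = 4.23e-09). Of thinned members of cluster 6, which is rich in these genes, 94.8% and 96.8% held a Cdx2 UMI, and the part of this cluster in the difference was not tested. Among low-mesoderm members Fgf8, Epha5 and Hoxa9 remained past the threshold (2.71, 3.19 and 2.52, adjusted p = 0.00471, 0.00694 and 0.00471).

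Keratins were lower with Cdx2 in 5 of 7 cases and higher in 0 (median −0.92), and DESeq2 called 3. Krt19 was at 109 and 89.4 CPM with Cdx2 and at 207 and 262 without (−1.22 ± 0.11, adjusted p = 6.46e-10), and Krt7 at 87.5 and 130 against 194 and 202 (−0.92 ± 0.11, adjusted p = 1.75e-07). Krt8 was lower by −0.51 ± 0.08 (adjusted p = 7.85e-06), but by −0.24 among low-mesoderm members (adjusted p = 0.438). The amnion list was lower in 4 of 4 cases, 3 of them also by DESeq2: Postn was at 4.45 and 2.23 CPM against 84.9 and 30.7 (−4.00 ± 0.23, adjusted p = 8.45e-15) and Hand1 at 120 and 32.6 against 321 and 121 (−1.58 ± 0.11, adjusted p = 1.34e-12). Acta2, Tagln, Col1a1, Dlk1, Pmp22, Pkdcc and Sox9 were the other named lower genes, between −2.01 and −3.09. Tagln did not pass by DESeq2 (adjusted p = 0.131). Cluster 9, whose barcodes go against the label, held 28 of the 212 and 3 of the 114 Cdx2-undetected members in replicates 1 and 2. It is led by Postn, Acta2 and Col1a1, with Postn at 580 and 713 CPM. Cluster 4, led by Anxa2, Car4 and Hand1, held more, 61 of the 212 and 27 of the 114, with Hand1 at 594 and 231 CPM. The part of either cluster in these differences was not tested.

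Pax3-detected members held more RNA of Zic2, a factor of the dorsal neural plate and its border, and less of Hand1 and Dlk1. Of 11056 genes, 187 were higher (1.69%) and 202 lower (1.83%), 3.52% in either direction, against 31 and 23 by DESeq2, 81 and 75 among low-mesoderm members and 104 and 84 with a gate of at least 6 UMIs. Of 8 border and crest genes tested 4 were higher and 1 lower (median 1.03, beside 0.00 over all genes tested). DESeq2 gave an adjusted p for 2 of these 5 and called 1, Zic2. Zic2 was at 48.8 and 53.0 CPM with Pax3 and at 10.1 and 8.17 without (2.39 ± 0.21, adjusted p = 9.68e-09). Zic5 and Pax7 were higher by 2.59 ± 0.31 and 2.55 ± 0.47 (adjusted p = 2.13e-06 and 0.0009), and Msx1 by 0.81 ± 0.11 (adjusted p = 2.73e-05). The crest genes Sox9 (0.22 ± 0.20, adjusted p = 0.792) and Snai2 (−1.84 ± 0.44, adjusted p = 0.0125) were not higher. Epidermal factors Dlx5, Tfap2c, Klf5 and Dlx6 were higher by 1.26, 1.20, 1.39 and 1.80, and Dlx5 was at 79.8 and 110 CPM against 39.8 and 35.2 (adjusted p = 7.86e-06).

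Penk, the enkephalin precursor, was at 40.1 and 85.9 CPM with Pax3 against 10.4 and 14.2 (2.22 ± 0.20, adjusted p = 1.27e-08). Cyp26a1, Gadd45a, Cacna1b and F2rl1 were higher by 1.63, 1.66, 1.51 and 1.48, and Fhl2 by 1.40, although Fhl2 was not called by DESeq2 (adjusted p = 1). Tcf15, a somite factor, was higher by 1.72 ± 0.23 (adjusted p = 1.3e-05) but by 0.72 without doublet-marked members (adjusted p = 0.574). Pax3 is itself a somite gene, and the share of Pax3 molecules that came from mesodermal RNA was not tested. The caudal epiblast list was higher in 9 of 10 cases and all 3 Cdx genes were higher, of which DESeq2 called 3 and 1. Cluster 6, led by Fgf8, Cyp26a1 and Epha5, held 62 of the 164 and 8 of the 66 Pax3-detected members in replicates 1 and 2. It held 93 of the 929 and 23 of the 459 undetected ones, and the part of this cluster in these differences was not tested. Trp63 was at 21.9 and 63.1 CPM with Pax3 and 29.7 and 92.6 without (adjusted p = 0.169).

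Wnt7a was lower with Pax3, at 15.8 and 20.2 CPM against 55.1 and 86.4 (−1.89 ± 0.21, adjusted p = 4.38e-07), and remained so among low-mesoderm members (−1.90, adjusted p = 0.00106). Hand1 was lower at 20.3 and 7.58 CPM against 184 and 58.1 (−3.09 ± 0.20, adjusted p = 1.46e-11), Dlk1 by −2.90 ± 0.16 (adjusted p = 4.33e-13) and Stard8 by −2.40. Acta2, Anxa2, Car4, Col1a1 and Tinagl1 were also lower by edgeR, between −1.92 and −3.22, and none of these 5 was called by DESeq2 (adjusted p from 0.468 to 1). Cluster 4, led by Anxa2, Car4 and Hand1, held 154 and 64 Pax3-undetected members and 2 and 1 Pax3-detected ones. Cluster 9, led by Postn, Acta2 and Col1a1, held 32 and 4 Pax3-undetected members and 1 and 0 Pax3-detected ones. The part of either cluster in these differences was not tested.

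Trp63-detected members held more RNA of Cxcl12, Bhlha9 and Epcam and less of Vim and Acta2. Of 10831 genes, 251 were higher (2.32%) and 451 lower (4.16%), 6.48% in either direction, against 9 and 44 by DESeq2, 110 and 237 among low-mesoderm members and 132 higher with a gate of at least 6 UMIs. The junction list gave 13 higher and 0 lower of 25 by edgeR (median 0.35, beside 0.00 over all genes tested), but DESeq2, which gave an adjusted p for all 13, called only 2 of 25. Epcam was at 433 and 560 CPM with Trp63 and at 312 and 395 without (0.48 ± 0.05), and by DESeq2 it also passed (adjusted p = 0.00182). Perp, the desmosome gene regulated by p63, was at 74.9 and 180 CPM against 43.5 and 109 (0.74 ± 0.09, DESeq2 adjusted p = 0.011). Among low-mesoderm members the difference of Epcam was 0.21 (adjusted p = 0.0101) and that of Perp 0.52 (adjusted p = 4.42e-05).

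No keratin was called with Trp63, with 0 higher and 0 lower of 6 by edgeR's quasi-likelihood test, 1 at an unadjusted p under 0.05 and 0 by DESeq2. With 6.48% of all genes tested called in either direction, 0 of 6 does not set keratins apart from other genes. Krt8 was at 1096 and 635 CPM with Trp63 and at 1078 and 698 without (−0.06 ± 0.04, adjusted p = 0.483). Among low-mesoderm members, however, Krt8 and Krt18 were lower by −0.31 and −0.30 (adjusted p = 1.36e-10 and 2.18e-09). Of 16 epidermal factors, 4 were higher and 1 lower: Dlx2, Grhl2, Dlx3 and Tfap2c were higher by 0.66, 0.50, 0.48 and 0.39, and none of these passed among low-mesoderm members (adjusted p = 0.196, 0.995, 0.841 and 0.732, with Tfap2c at −0.16) or by DESeq2 (adjusted p = 1 each).

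The named higher genes with Trp63 included Cxcl12, at 366 and 600 CPM against 166 and 340 (0.97 ± 0.05, DESeq2 adjusted p = 1.19e-12), and Bhlha9, at 134 and 146 against 54.6 and 87.6 (1.04 ± 0.08, DESeq2 adjusted p = 8.23e-05). Wnt7a and Fermt1, an integrin activator of epidermis, were higher by 0.90 and 0.96 (DESeq2 adjusted p = 0.0141 and 0.00195). Mt2, Sost, Lbh and Fmn1 were higher by 0.82, 0.87, 0.96 and 0.82, of which Sost, Lbh and Fmn1 did not pass by DESeq2 and Mt2 and Sost did not pass among low-mesoderm members (adjusted p = 0.106 and 0.286).

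Mesenchymal genes were lower with Trp63 in 9 of 12 cases (median −1.34), caudal epiblast genes in 9 of 10 (median −1.55) and amnion genes in 4 of 4 (median −1.52), and DESeq2 called 3, 5 and 1 of them. Vim (vimentin) was at 110 and 65.3 CPM with Trp63 against 233 and 201 (−1.31 ± 0.07, DESeq2 adjusted p = 1.31e-11). Acta2, smooth muscle actin, was at 16.5 and 7.45 CPM against 206 and 69.1 (−3.48 ± 0.12, DESeq2 adjusted p = 3.25e-36), Cyp26a1 at 11.02 and 16.3 against 73.3 and 59.5 (−2.26 ± 0.14) and Dlk1 at 133 and 28.6 against 453 and 157 (−1.96 ± 0.07). Col1a1, Tagln, Hand1, Fgf8 and Epha5 were the other named lower genes, between −1.55 and −2.56. Tagln and Hand1 did not pass by DESeq2 (adjusted p = 0.0526 and 0.669), and Epha5 did not pass among low-mesoderm members (−0.70, adjusted p = 0.129). Clusters 3, 6 and 9, which carry some of these genes, hold little Trp63, at 12.3 and 39.8, 5.25 and 15.7, and 0 and 0 CPM. Cluster 4, with Hand1, Dlk1 and Tagln among its leading genes, held 132 and 36 Trp63-undetected members and 24 and 29 detected ones. The part of these clusters in the difference was not tested.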

How the data were processed

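Gene expression was measured in 2 droplet libraries (10x Genomics 5′ kit) of pooled caudal tissue. The deposited matrices hold counts, whole-number UMIs per gene and barcode, not normalized; per the submitters' processing notes Cell Ranger 6.1.1 and mm10 were used. The members, gates and gene lists were chosen with earlier results of these data known. Counts were summed per class and library and tested with edgeR 4.0.16's quasi-likelihood test (R 4.3.3, limma 3.58.1), with library as a block, TMM scaling, its filter on low counts and Benjamini-Hochberg adjustment over all genes tested (threshold 0.05, prior count 2). A log2 difference is the fitted log2 fold change with its SE, taken as the size of the difference over the square root of the test's F statistic. The labels do not say whether the libraries came from separate embryo pools, so p-values measure only the spread between these 2 libraries, which may be technical.

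Library is the block: both classes of a comparison come from the same library. Named genes were the 20 highest and 10 lowest past the threshold against all others, and the 8 in each direction in every other comparison, with the same direction in both libraries and at least 30 CPM in the higher class. Members of a list whose role is described were added, some after their values were seen. Thinning drew 12000 UMIs per member without replacement. Endothelial barcodes had at least 4 UMIs of Kdr, Cdh5 and Tek. Doublets were scored with Scrublet (Scanpy 1.11.5) and kept, with an alternative without them. Clusters came from Leiden (leidenalg 0.10.2) at resolution 0.5. DESeq2 1.42.0 was an alternative. The fits were tested on simulated data. Barcodes under 0.3% mitochondrial UMIs were left out. A few genes that the rule or the lists would name are not reported here.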

Additional observations from a re-analysis of the deposited data

Results flagged for a closer look

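A custom eGFP sequence in the reference, which entered no comparison, gave 1.365 CPM in members of replicate 1 and 1.59 CPM in members of replicate 2, from 38 and 18 UMIs. It was found in 31 members (2.52%) and 14 members (1.90%), and in 6.49% and 4.47% of the other barcodes, where it stood at 5.25 and 4.07 CPM. The labels describe wild-type embryos.

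Barcodes under 0.3% mitochondrial UMIs, left out of every comparison, also passed the surface ectoderm gate: 371 in replicate 1 and 85 in replicate 2. They were 3.31% and 1.65% of such barcodes.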

How the results depend on the processing

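Without library as a block, higher and lower genes numbered 61 and 13 against all others, 780 and 387 against neural, 128 and 267 against gut endoderm, and 497 and 147 against caudal epiblast. The same fit without the replicate block gave 0 and 0 in the Cdx2, Pax3 and Trp63 divisions. DESeq2 called 58 and 91 genes for Cdx2, 31 and 23 for Pax3, and 9 and 44 for Trp63. With a gate of at least 6 UMIs the Pax3 division gave 104 and 84 genes and the Trp63 division 132 higher. Without the filter on low counts 1637 genes were lower than in all others. Members with few mesoderm UMIs, an alternative chosen after the data were seen, gave 1591 lower than all others, 1300 lower than caudal epiblast, 113 and 114 for Cdx2, 81 and 75 for Pax3, and 110 and 237 for Trp63. The mean share of members, 9.916%, was 11.4% with a gate of at least 3 UMIs, 6.622% with no mitochondrial floor, 12.64% with a gate on thinned barcodes and 6.823% with few mesoderm UMIs, and each library alone gave 8.868% or 10.96%. Of the genes named, 1 reversed: Tfap2c in the Trp63 division, at 0.39, was at −0.161 among members with few mesoderm UMIs. With 1 library left out no residual degrees of freedom remain, so those fits give values with no test. The causes were not tested.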
